A study of Danio rerio with 12 samples.

Results

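Photoreceptor and phototransduction genes were measured by 50 probe sets for 41 genes, among 15502 probe sets tested on a zebrafish Affymetrix array. A single gene symbol was given for 10795 of those probe sets, which named 8793 genes. A probe set was included when its platform symbol began with opn, gnat, gnb followed by a digit, gngt, pde6, guca, rcvrn, grk, arr3, sag, prph2, rpe65, rlbp1, rom1 or rbp, or was rho, crx, rx1, rx2 or rx3, a rule on symbols that was set with earlier results of these data known. The members were 6 cone opsins, the melanopsin opn4.1, 9 G protein subunit genes, 4 phosphodiesterase subunit genes, 3 guanylate cyclase activator genes, 2 recoverin genes, 4 disc rim genes, 4 retinoid cycle genes and 4 transcription factor genes. The remaining 4 genes, grk5, grk6, rbp2a and rbp4, were caught by their prefix and are known for work outside photoreceptors. Where a gene had several probe sets, as 8 genes did, they are numbered in the text. Rhodopsin, the arrestins and the photoreceptor kinases grk1 and grk7 were not analysed here.

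Vertebrate photoreceptors detect light with opsins carrying a retinal chromophore. An activated opsin switches on transducin, a G protein of alpha, beta and gamma subunits, which relieves the inhibition of the cyclic GMP phosphodiesterase, and the fall in cyclic GMP closes cation channels in the outer segment. Guanylate cyclase activating proteins and recoverin bring the cell back to its dark state as calcium falls, peripherin-2 and Rom1 hold the rims of the outer segment discs, and the retinoid cycle of the pigment epithelium and Müller glia regenerates the chromophore. Rods and cones use different genes for most of these steps, and the young zebrafish larva sees mainly with its cones.

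RNA came from whole embryos at 80 hours post fertilization, 3 arrays for each of 4 genotypes. Wild type was the Tu strain. The genotype labels name no strain for the other lines, so differences of strain or line cannot be told apart from those of genotype. BRAF embryos were stably homozygous for tg(mitf-BRAFV600E), which drives activated BRAF from the mitf promoter, active in pigment cells and their precursors. The p53 group was homozygous for the M214K allele of p53, and BRAF;p53 embryos carried both. The genes altered in these genotypes were not analysed here. Mitfa, the gene whose promoter drives the transgene, did not pass the test over the 4 genotypes (limma adjusted p = 0.792). The number of embryos and clutches behind each sample is not stated, and p53 replicates 1 and 2 carry the sample names 1a and 1b while replicate 3 is named 2. Because separate clutches are not named, p-values here reflect the scatter among the deposited samples, some of which may be technical. In whole-embryo RNA, fewer cells of a type and less RNA per cell cannot be told apart.

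All values are log2 expression values, and for 13937 of 15617 probe sets, controls included, they had been centred near the median over the 12 arrays. For these a value of 0 is thus the middle of that probe set's own arrays and not absence. For the other 1680, among them 5 members, the middle lies below 0. Levels cannot be compared between genes. The array count limits the precision. BRAF replicate 1 and p53 replicate 3 stood apart from the other arrays of their genotype: they correlated with them at 0.409 to 0.564 and at 0.467 to 0.477 over all probe sets, against 0.671 to 0.84 for the other pairs within a genotype. The median within-genotype SD was 0.222 for the members and 0.172 for all probe sets. Differences are given on the log2 scale as limma estimates ± SE with 3 arrays per genotype, and a member is said to have risen or fallen when its p-value, corrected with the Benjamini-Hochberg method across the 15502 probe sets tested, was under 0.05.

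Few photoreceptor genes differed between genotypes. Over the 4 genotypes 3 of 50 members passed the moderated F test of limma, rom1a, gnb1b and rom1b, which is 6% of the members against a background of 9.43% of all probe sets. Rom1a, a disc rim protein, accounted for 4 of the 10 pairwise calls, and gnb1b, a transducin beta subunit, for a further 2. In BRAF against wild type 4 members passed (rom1a and rx1 higher, gnb1b and rlbp1a lower), beside a background of 6.41%, and in p53 against wild type 1 passed (rom1a lower), beside 1.83%. BRAF;p53 embryos had 1 call against wild type (rom1b lower), beside 1.95%, and 1 against p53 embryos (rom1a higher), beside 2.94%. Against BRAF embryos the double genotype had 2 calls (gnb1b higher, prph2a lower), beside 4.5%. BRAF against p53 embryos gave 1 call (rom1a higher), beside 7.44%, and the test of whether the BRAF difference depended on the p53 genotype gave 1 (gnb1b), beside 3.21%. These shares, 2% to 8% of the members, lay near the background or below it. The F-test call of rom1a held whichever array was left out, that of gnb1b was lost without BRAF replicate 1 or 2 or BRAF;p53 replicate 1 or 2 (limma adjusted p of 0.053 to 0.0815), and that of rom1b in 8 of 12 fits, those without BRAF replicate 3, any BRAF;p53 array, p53 replicate 1 or 2, or wild-type replicate 1 or 3 (0.0505 to 0.135). Counts moved with single arrays. Without wild-type replicate 2 rom1a alone passed in BRAF against wild type, beside 3.84% of all probe sets. Without p53 replicate 2 the count in BRAF against p53 was 5, beside 5.86%. Without p53 replicate 3 the count was 6 in BRAF;p53 against BRAF and 7 in the F test, beside 6.33% and 11.3%.

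Arrays of the genotypes compared did not overlap for 13 members in BRAF against wild type, where 28.4% of all probe sets did not overlap. The corresponding counts were 4 in p53 against wild type (background 19.1%), 14 in BRAF;p53 against wild type (25.3%) and 9 in BRAF;p53 against p53 (21.9%). They were 22 in BRAF;p53 against BRAF (29%) and 9 in BRAF against p53 (23.4%). The 22 members of BRAF;p53 against BRAF make 44% of the members, above the background of 29%, and in that comparison 40 of 50 members were lower in the double genotype, with a median difference of -0.27. Of all 15502 probe sets 9361 were lower there, with a median of -0.06, and 39.6% were higher against 20% of the members. Of the members 2 passed the test there, and 18 (36%) had an unadjusted p under 0.05, beside 22% of all probe sets. The 36 probe sets of a list of further photoreceptor and visual cycle genes, without members, had a median of -0.06 there, with 13 higher. A list of 9 intestinal probe sets, which holds no member, had a median difference of -0.67 in that comparison. A list of 12 probe sets for ganglion cell genes, among them elavl3, elavl4 and gap43, had one of 0.27, with 11 of 12 higher in the double genotype. In whole-embryo RNA the signal of this list cannot be assigned to the retina. Medians of the remaining lists, described below, ran from -0.08 (liver and yolk) to 0.28 (pigment epithelium and melanin) in that comparison. The part of any of these lists in the members' count was not tested. The comparisons share genotypes, the wild-type arrays in 3 of them, and their counts are not independent of each other.

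**Figure D1:**
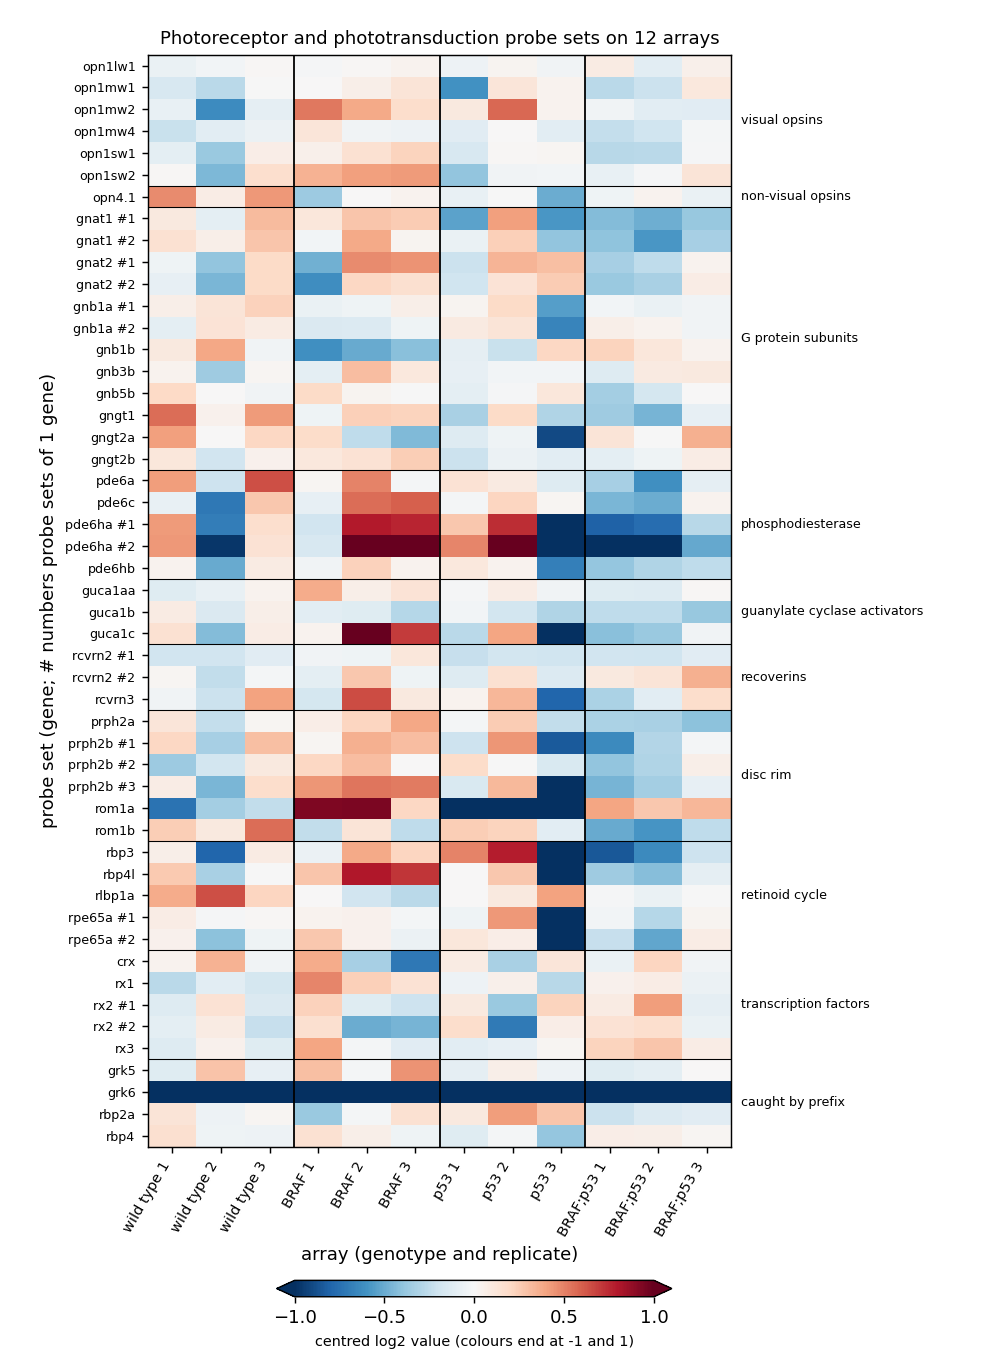
Centred log2 values of all 50 probe sets (vertical axis, grouped by role) on the 12 arrays (horizontal axis, grouped by genotype); red is above and blue below 0, and colours end at -1 and 1. For 40 of 50 members the BRAF;p53 mean lies below the BRAF mean, and p53 replicate 3 lies below -1, where the blue is darkest, for 10 of the 50 probe sets against 1 or 2 on each of the other 11 arrays; grk6 does so on every array.

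Rom1a, whose mammalian counterpart joins peripherin-2 in the disc rim, was the member with the largest differences. Its centred values were -0.74, -0.34 and -0.25 on the wild-type arrays and 0.93, 0.94 and 0.21 on the BRAF arrays. They were -1.57, -1.19 and -1.87 on the p53 arrays and 0.39, 0.27 and 0.34 on the BRAF;p53 arrays. All 6 arrays carrying the transgene were thus above 0 and all 6 arrays without it below 0, and the p53 arrays lay below every wild-type array.

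In BRAF embryos rom1a rose by 1.14 ± 0.22 over wild type, a 2.20-fold difference (limma adjusted p = 0.0105). In p53 embryos it fell by 1.11 ± 0.22, or 2.15-fold (adjusted p = 0.0295 with limma). BRAF;p53 embryos exceeded p53 embryos by 1.88 ± 0.22, or 3.68-fold (limma adjusted p = 0.000949), and BRAF embryos exceeded p53 embryos by 2.24 ± 0.22, or 4.73-fold (limma adjusted p = 0.000178). BRAF;p53 embryos exceeded wild type by 0.77 ± 0.22 without overlap of the arrays, a difference that did not pass (limma adjusted p = 0.115) but did under quantile normalization and with only the genotypes compared, and the double genotype differed from BRAF embryos by -0.36 (adjusted p = 0.354 with limma). The BRAF difference was larger by 0.74 in p53 mutants than with functional p53, which did not pass (limma adjusted p = 0.226). Of these calls 3 held whichever array was left out, those between BRAF and wild type, BRAF;p53 and p53, and BRAF and p53. The call in p53 embryos was lost in 6 of 12 such fits, without wild-type replicate 2 or 3, p53 replicate 1 or 3, or BRAF;p53 replicate 2 or 3, with limma adjusted p of 0.0519 to 0.106 and differences of -1.11 to -0.94.

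The paralogue rom1b did not follow rom1a. Its centred values were 0.24, 0.10 and 0.56 in wild type, -0.24, 0.13 and -0.26 in BRAF, 0.24, 0.23 and -0.10 in p53 and -0.50, -0.59 and -0.26 in BRAF;p53 embryos. The BRAF;p53 arrays lay below every wild-type and p53 array, whereas they overlapped the BRAF arrays. Rom1b fell by 0.75 ± 0.16 in BRAF;p53 embryos against wild type, or 1.68-fold (limma adjusted p = 0.0361), and its differences in BRAF (-0.43) and p53 embryos (-0.18) did not pass (adjusted p = 0.152 and 0.677 with limma). The call was lost without wild-type replicate 1 or 3, p53 replicate 2, or any single BRAF;p53 array, with limma adjusted p of 0.0505 to 0.147.

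Peripherin-2, the scaffold of the disc rim, is encoded by prph2a and prph2b. Prph2a had centred values of 0.12, -0.24 and 0.02 in wild type, 0.06, 0.22 and 0.39 in BRAF, -0.02, 0.25 and -0.24 in p53 and -0.32, -0.32 and -0.41 in BRAF;p53 embryos. The BRAF;p53 arrays were the 3 lowest of the 12. Prph2a fell by 0.57 ± 0.14 in BRAF;p53 against BRAF embryos, or 1.49-fold (limma adjusted p = 0.0416), and the call was lost in 7 of 12 fits without 1 array (BRAF replicate 2 or 3, each BRAF;p53 array, p53 replicate 1 or wild-type replicate 3), with limma adjusted p of 0.0595 to 0.126. The 3 probe sets of prph2b were lower in the same comparison by 0.55, 0.38 and 0.79 without passing (lowest adjusted p = 0.138 with limma). For the third of them the BRAF arrays, at 0.44, 0.54 and 0.52, lay above all 9 other arrays, and without p53 replicate 3 its difference of -0.79 between BRAF;p53 and BRAF embryos passed (limma adjusted p = 0.0293). These probe sets of prph2b also disagreed most among probe sets of any single member gene, by up to 0.85 on p53 replicate 3.

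**Figure D2:**
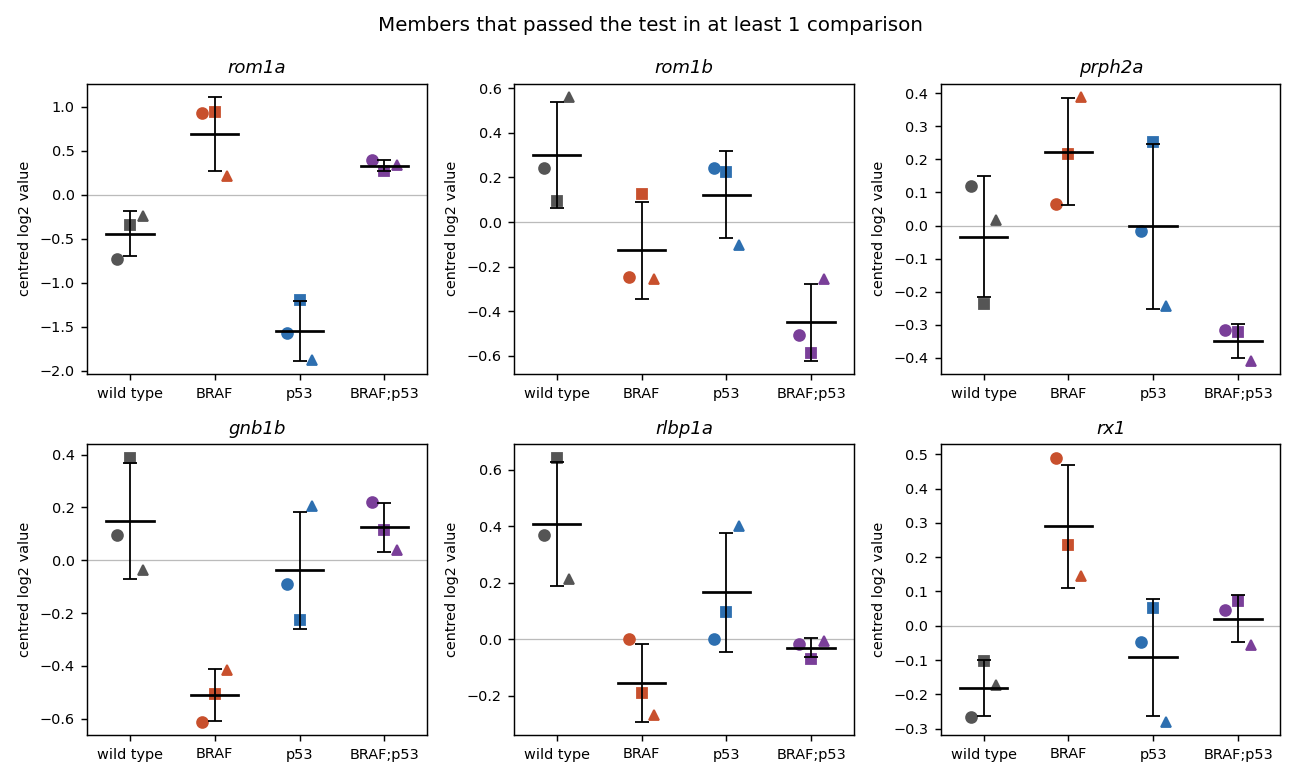
Centred log2 values (vertical axis) of the 6 members that passed the test in at least 1 pairwise comparison, by genotype (horizontal axis); circles, squares and triangles are replicates 1, 2 and 3, the bar is the mean and the whisker the SD over 3 arrays. Rom1a is above 0 on all 6 arrays with the transgene and below 0 on all 6 without it, and gnb1b is lowest on the 3 BRAF arrays.

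Among the light receptors themselves, none of the 6 cone opsin probe sets passed in any pairwise comparison with limma, while 3 had an unadjusted p under 0.05 in at least 1. In single comparisons 13% to 22.7% of all probe sets had such a p, and their share over all pairwise comparisons was not counted. The green-sensitive opsin genes of zebrafish are similar copies, and their probe sets may share signal. In BRAF embryos all 6 opsins lay above wild type, by 0.04 to 0.63 with a median of 0.24, where 57.9% of all probe sets lay above and their median was 0.05. In BRAF;p53 embryos all 6 lay below BRAF embryos, by 0.005 to 0.45 (median -0.26).

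The blue-cone opsin opn1sw2 had centred values of 0.34, 0.41 and 0.43 on the BRAF arrays. These lay above all 9 other arrays, which ranged from -0.45 to 0.17. Its difference from wild type was 0.48 ± 0.15 (limma adjusted p = 0.0964), and from p53 embryos 0.55 ± 0.15 (adjusted p = 0.0564 with limma), the latter past the threshold without wild-type replicate 2 or 3. The green-cone opsin opn1mw2 had values of -0.07, -0.63 and -0.09 in wild type, 0.52, 0.38 and 0.18 in BRAF, 0.10, 0.58 and 0.04 in p53 and -0.04, -0.11 and -0.12 in BRAF;p53 embryos. Its BRAF and p53 arrays lay above all wild-type arrays, and neither difference passed: 0.63 ± 0.18 in BRAF (limma adjusted p = 0.0606) and 0.50 ± 0.18 in p53 embryos (limma adjusted p = 0.206). The first passed without p53 replicate 2 and with p53 samples 1a and 1b averaged. The BRAF difference of opn1mw2 was smaller by 0.95 in p53 mutants (limma adjusted p = 0.0683), and this difference passed once p53 replicate 3 was left out (-1.05, limma adjusted p = 0.0443). The p53 mean then rests on samples 1a and 1b alone, which are not stated to be separate clutches.

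The ultraviolet-cone opsin opn1sw1 differed by 0.28 ± 0.12 between BRAF and wild type (limma adjusted p = 0.229), the green-cone opsins opn1mw1 and opn1mw4 by 0.21 and 0.14 (adjusted p = 0.523 and 0.413 with limma). The red-cone opsin opn1lw1 stayed between -0.11 and 0.08 on all 12 arrays, and its F test gave a limma adjusted p of 0.961. Opn4.1, a melanopsin of the inner retina, had centred values of 0.47, 0.08 and 0.43 in wild type, -0.36, 0.00 and 0.04 in BRAF, -0.08, -0.004 and -0.50 in p53 and -0.05, 0.03 and -0.07 in BRAF;p53 embryos. Every wild-type array lay above every array of the 3 other genotypes. The differences of -0.43, -0.52 and -0.35 from wild type did not pass (limma adjusted p = 0.143, 0.144 and 0.37).

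Of the transducin subunits, gnb1b alone passed the test. Gnb1 encodes the beta subunit of rod transducin in mammals and is also widely expressed outside the eye. Its centred values were 0.09, 0.39 and -0.04 in wild type, -0.61, -0.51 and -0.42 in BRAF, -0.09, -0.23 and 0.21 in p53 and 0.22, 0.12 and 0.04 in BRAF;p53 embryos. The 3 BRAF arrays were the lowest of the 12 and overlapped none of the others. Gnb1b fell by 0.66 ± 0.14 in BRAF embryos against wild type, or 1.58-fold (limma adjusted p = 0.014), and was higher by 0.64 ± 0.14 in BRAF;p53 than in BRAF embryos, or 1.55-fold (limma adjusted p = 0.0234). The BRAF difference was thus -0.66 with functional p53 and 0.16 in p53 mutants (adjusted p = 0.658 with limma), and the gap of 0.82 ± 0.19 between them passed (limma adjusted p = 0.0429). Leaving out wild-type replicate 2 ended the first call (-0.54, limma adjusted p = 0.0572). Leaving out BRAF replicate 1 or 2, or BRAF;p53 replicate 1 or 2, ended the second (0.59 to 0.64, adjusted p of 0.0599 to 0.106 with limma), and the call on the gap held in 2 of 12 such fits, those without p53 replicate 3 and without wild-type replicate 3 (in the other 10, 0.70 to 0.87 with limma adjusted p of 0.0601 to 0.12). The paralogue gnb1a, with 2 probe sets, differed from wild type by -0.15 and -0.15 in BRAF embryos (limma adjusted p = 0.602 and 0.657).

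The rod genes of the cascade were gnat1 (transducin alpha, 2 probe sets), gngt1 (transducin gamma) and pde6a (catalytic phosphodiesterase alpha). The beta subunit genes gnb1a and gnb1b were not placed in this group. The cone genes were the 6 opsins, gnat2, gnb3b, gngt2a, gngt2b, pde6c, pde6ha and pde6hb, with 15 probe sets. This division follows textbook knowledge but was made after the values had been seen and serves as a description. With all arrays and 1 fit over the 4 genotypes, none of the rod probe sets and none of the cone probe sets passed in any pairwise comparison with limma, while all 4 rod and 6 of 15 cone probe sets had an unadjusted p under 0.05 in at least 1. In single comparisons 13% to 22.7% of all probe sets had such a p. Their share over all pairwise comparisons was not counted, so these counts have no matching background. All 4 rod probe sets were lower in BRAF;p53 embryos than in wild type, by 0.54 to 0.64 (median -0.62), where the median of the cone probe sets was -0.05 and that of all probe sets -0.01. In the same comparison the beta subunit genes left out of the rod group did not share this size of difference. Gnb1a differed by -0.18 and -0.02 in its 2 probe sets and gnb1b by -0.02. The 36 further photoreceptor and visual cycle probe sets had a median there of -0.02, with 13 above wild type. The intestinal list had a median of -0.76, and all 12 probe sets of the ganglion cell list were above wild type with a median of 0.19. Medians of the remaining lists ran from -0.08 (Müller glia and ciliary margin) to 0.35 (pigment epithelium and melanin). Under quantile normalization, centred array medians and the other settings with all or fewer arrays the rod median stayed between -0.73 and -0.50. All 4 rod probe sets were also lower than wild type in p53 embryos, with differences of -0.485 to -0.239. Their median was -0.29, against 0.001 for all probe sets. From p53 embryos the double genotype differed by -0.383 to -0.159 (median -0.28, against -0.01).

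Gnat1 illustrates the rod genes. Its second probe set had centred values of 0.15, 0.06 and 0.28 in wild type, -0.03, 0.38 and 0.03 in BRAF, -0.07, 0.24 and -0.40 in p53 and -0.41, -0.58 and -0.33 in BRAF;p53 embryos. The BRAF;p53 arrays lay below all wild-type and all BRAF arrays and overlapped the p53 arrays. The difference from wild type was -0.60 ± 0.16 (limma adjusted p = 0.0917), and from BRAF embryos -0.57 ± 0.16 (adjusted p = 0.0735 with limma). Both passed when p53 replicate 3 was left out, which lowers the pooled spread (limma adjusted p = 0.0387 and 0.0329). Both also passed under quantile normalization, the first with only the genotypes compared, and the second without p53 replicate 2. The first probe set of gnat1 differed from wild type by -0.54, gngt1 by -0.64 and pde6a by -0.63 (limma adjusted p = 0.321, 0.101 and 0.218). For gngt1 the wild-type arrays at 0.56, 0.04 and 0.43 lay above the BRAF;p53 arrays at -0.35, -0.47 and -0.08, whereas the arrays of pde6a overlapped. Gngt1 passed against wild type under quantile normalization. The first probe set of gnat1 passed against wild type and against BRAF embryos with only the genotypes compared and without p53 replicate 2, and against BRAF embryos also with p53 samples 1a and 1b averaged.

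Cone genes lay slightly above wild type in BRAF embryos (14 of 15 probe sets, median 0.21, against 0.05 for all probe sets) and below BRAF embryos in the double genotype (14 of 15, median -0.33, against -0.06). The first median was 0.15 without wild-type replicate 2, and the second -0.20 without BRAF replicate 2. Gnat2, the cone transducin alpha, differed by 0.23 and 0.03 between BRAF and wild type in its 2 probe sets, and gnb3b, the cone beta subunit, by 0.20 (limma adjusted p = 0.646, 0.957 and 0.413). For both probe sets of gnat2 BRAF replicate 1 was the lowest of all 12 arrays, at -0.48 and -0.62, while BRAF replicates 2 and 3 lay at 0.16 to 0.47. Pde6c, the cone catalytic phosphodiesterase, differed by 0.54 ± 0.25 (limma adjusted p = 0.257), with wild-type values of -0.08, -0.72 and 0.27 overlapping BRAF values of -0.08, 0.56 and 0.60. The cone gamma subunit gngt2a went the other way, with -0.38 in BRAF and -0.56 in p53 embryos (limma adjusted p = 0.376 and 0.29), and gngt2b differed by 0.18 and -0.12 (limma adjusted p = 0.336 and 0.663).

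**Figure D3:**
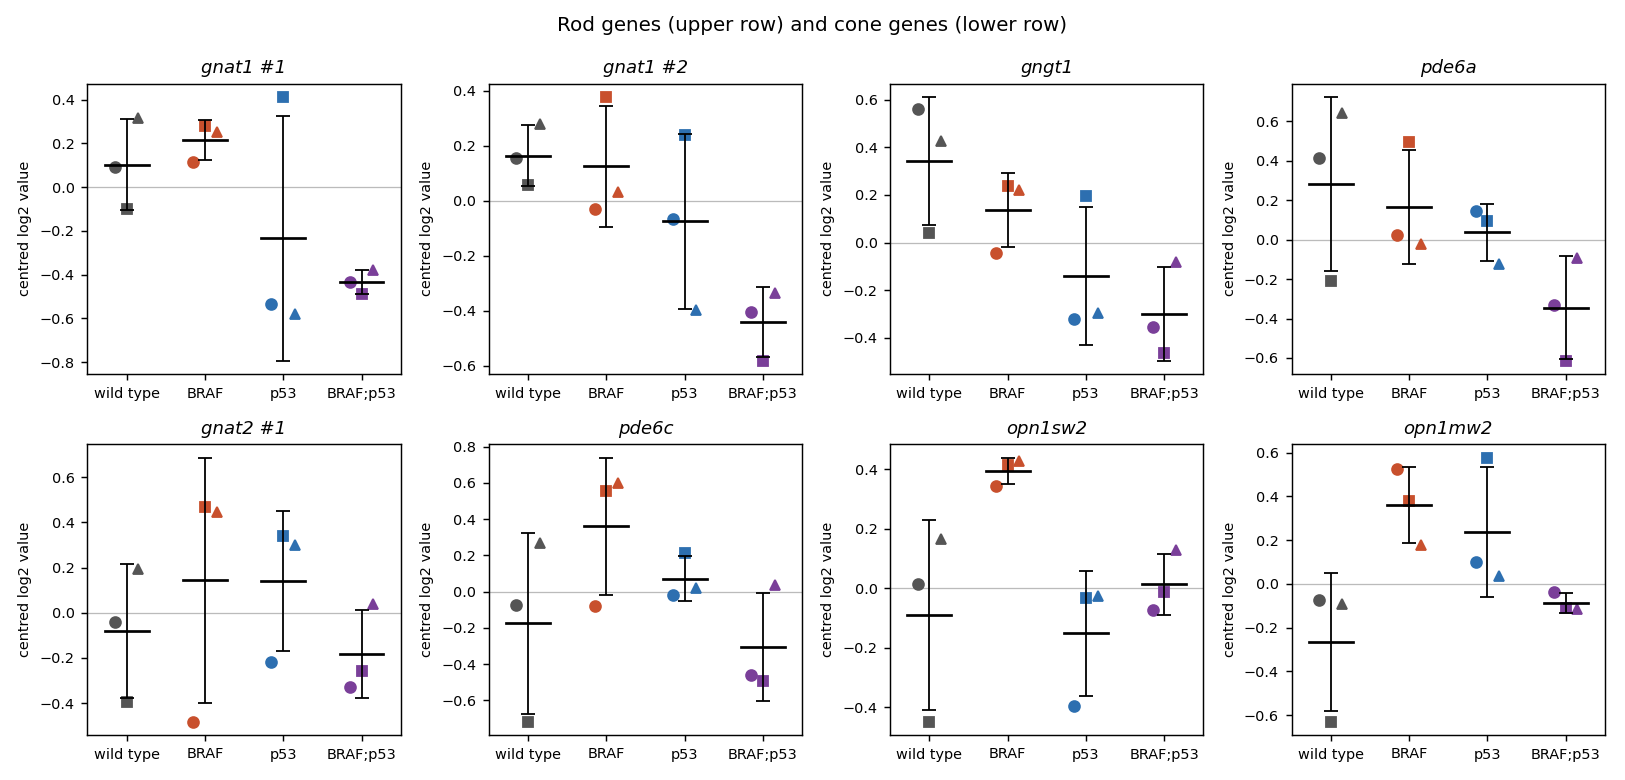
Centred log2 values (vertical axis) of the 4 rod probe sets and of 4 of the 15 cone probe sets by genotype (horizontal axis); symbols are replicates 1 to 3, bars means and whiskers SDs over 3 arrays. The BRAF;p53 arrays have the lowest mean for each rod probe set, and opn1sw2 is highest on the 3 BRAF arrays; none of the 8 probe sets passed the test.

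Within a genotype many photoreceptor genes were high or low on the same arrays. Wild-type replicate 2 was the lowest of the 3 wild-type arrays for 32 of 50 members, against 29.7% of all probe sets, and BRAF replicate 1 the lowest BRAF array for 28, against 25.1%. The mean of the 15 cone probe sets was 0.04, -0.41 and 0.09 on the wild-type arrays and -0.02, 0.31 and 0.26 on the BRAF arrays. It was -0.08, 0.20 and -0.42 on the p53 arrays and -0.29, -0.27 and -0.02 on the BRAF;p53 arrays. The list of intestinal genes (9 probe sets for 8 of 9 genes, among them fabp2, vil1, slc15a1b and fabp6) had means of 0.53, -0.66 and 0.36 on the wild-type and -0.21, 0.73 and 0.79 on the BRAF arrays. Its means were 0.03, 0.33 and -0.49 on the p53 arrays and -0.98, -0.46 and -0.29 on the BRAF;p53 arrays. Wild-type replicate 2, BRAF replicate 1 and p53 replicate 3 were thus the lowest of their genotype for both groups of genes. None of the intestinal probe sets passed in any pairwise comparison with limma, and 1 had an unadjusted F-test p under 0.05, beside 25.7% of all probe sets. The part that whatever these samples share plays in the cone gene differences was not tested.

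**Figure D4:**
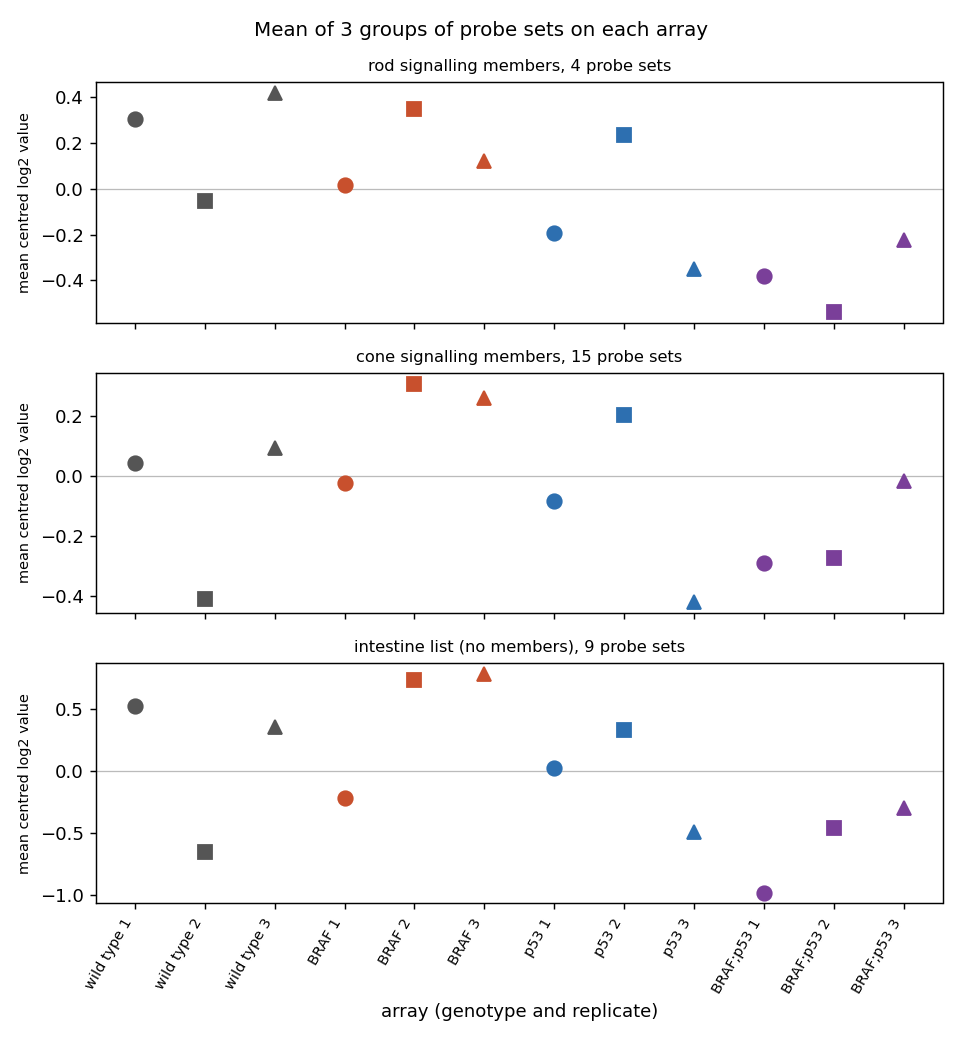
Mean centred log2 value (vertical axis) of the rod members, the cone members and a list of intestinal genes on each of the 12 arrays (horizontal axis, colours for genotypes, symbols for replicates). Within the wild-type and BRAF genotypes wild-type replicate 2 and BRAF replicate 1 are lowest in all 3 panels, and the BRAF;p53 means lie below 0 in each.

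Pde6ha, an inhibitory subunit of the cone phosphodiesterase, showed the widest spread of the members within genotypes, with SDs of 0.956 and 1.13 in its 2 probe sets. For pde6hb, the other such subunit, the SD was 0.283. The second probe set of pde6ha had centred values of 0.43, -0.97 and 0.15 in wild type, -0.16, 1.18 and 1.06 in BRAF, 0.49, 0.99 and -2.65 in p53 and -1.08, -1.08 and -0.51 in BRAF;p53 embryos. Its BRAF arrays lay above all BRAF;p53 arrays, and its p53 arrays spanned more than any other genotype's. The difference of -1.59 ± 0.79 between BRAF;p53 and BRAF embryos did not pass (limma adjusted p = 0.264), and it passed without p53 replicate 3 (-1.59, limma adjusted p = 0.0486). The first probe set differed by -1.07 in the same comparison (limma adjusted p = 0.366) and pde6hb by -0.39 (limma adjusted p = 0.288).

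On p53 replicate 3 a subset of members was low, together with parts of the pigment and intestinal lists. This array was the lowest of the 12 for 19 of 50 members, against 15.1% of all probe sets, and 8 member probe sets of 6 genes lay at least 1 below the mean of p53 replicates 1 and 2, while none lay 0.5 or more above it. How many of all probe sets lay that far from this mean was not counted. Among all probe sets, 45 lay at least 1 below every other array on p53 replicate 3, and 5 of these were members: both probe sets of pde6ha, both of rpe65a, and rbp4l. BRAF replicate 1 had 196 such probe sets, none of them a member, and each remaining array had 0 to 5. The gaps to the mean of replicates 1 and 2 were -2.93 and -3.39 for pde6ha, -2.20 and -2.03 for rpe65a, -2.22 for rbp3, -1.82 for rbp4l, -1.26 for guca1c and -1.09 for the third probe set of prph2b. Several members did not share this, since opn1sw1, opn1sw2, pde6c and opn1lw1 lay between -0.03 and 0.02 on that array. Of the 4 pigment epithelium and melanin probe sets outside the members 3 lay at least 1 below the mean of replicates 1 and 2. Their centred values on p53 replicate 3, not gaps, were -1.25 for rgrb, -1.40 for dct and -1.75 for pmelb, while tyr (-0.22) lay above p53 replicate 2. Pmelb was also low on wild-type replicate 3 (-1.11) and BRAF replicate 3 (-0.91). The other photoreceptor and pineal lists were mixed. Of 36 probe sets for further photoreceptor and visual cycle genes 2 lay at least 1 below that mean, rgrb again and the transcription factor otx5 (centred value -1.28). Another lay at least 0.5 above it, a probe set of the thyroid hormone receptor gene thrb (centred value 1.74). Of 6 pineal probe sets 1 lay at least 1 below, the melatonin enzyme aanat2 (centred value -1.18), and the median gap of the 6 was -0.13. The low values were not confined to genes of the eye. Of 9 intestinal probe sets 4 lay at least 1 below, with a median gap of -0.45, and 1 lay at least 0.5 above. For liver and yolk 1 of 9 lay at least 1 below, with a median gap of 0.10. The median gap was 0.35 for 12 ganglion cell probe sets and 0.30 for 23 of Müller glia and the ciliary margin. In each of these lists 4 lay at least 0.5 above. Medians were 0.035 for horizontal and amacrine, -0.01 for lens and -0.15 for bipolar genes. No probe set of the ganglion, Müller, horizontal and amacrine, lens or bipolar lists lay at least 1 below.

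With all arrays 32 of 50 members lay below wild type in p53 embryos, and without p53 replicate 3 it was 23, with median differences of -0.09 and 0.03. Beside the first count, 7698 of all 15502 probe sets lay below wild type, with a median of 0.001. The sign of 13 members changed, 11 from below to above and 2 the other way. The differences of the first and second probe sets of rpe65a went from -0.56 and -0.45 to 0.17 and 0.23, and those of pde6ha from -0.44 and -0.26 to 0.53 and 0.87, and none of these passed either way (lowest limma adjusted p = 0.433). Without that array 7 members passed the F test in place of 3, which is 14% of the members beside 11.3% of all probe sets: gnat1 (second probe set), gnb1b, prph2a, rbp4l, rlbp1a, rom1a and rom1b. The array is the p53 sample named 2, and what sets it apart was not tested. Without it the p53 mean rests on samples 1a and 1b alone, which are not stated to be separate clutches.

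**Figure D5:**
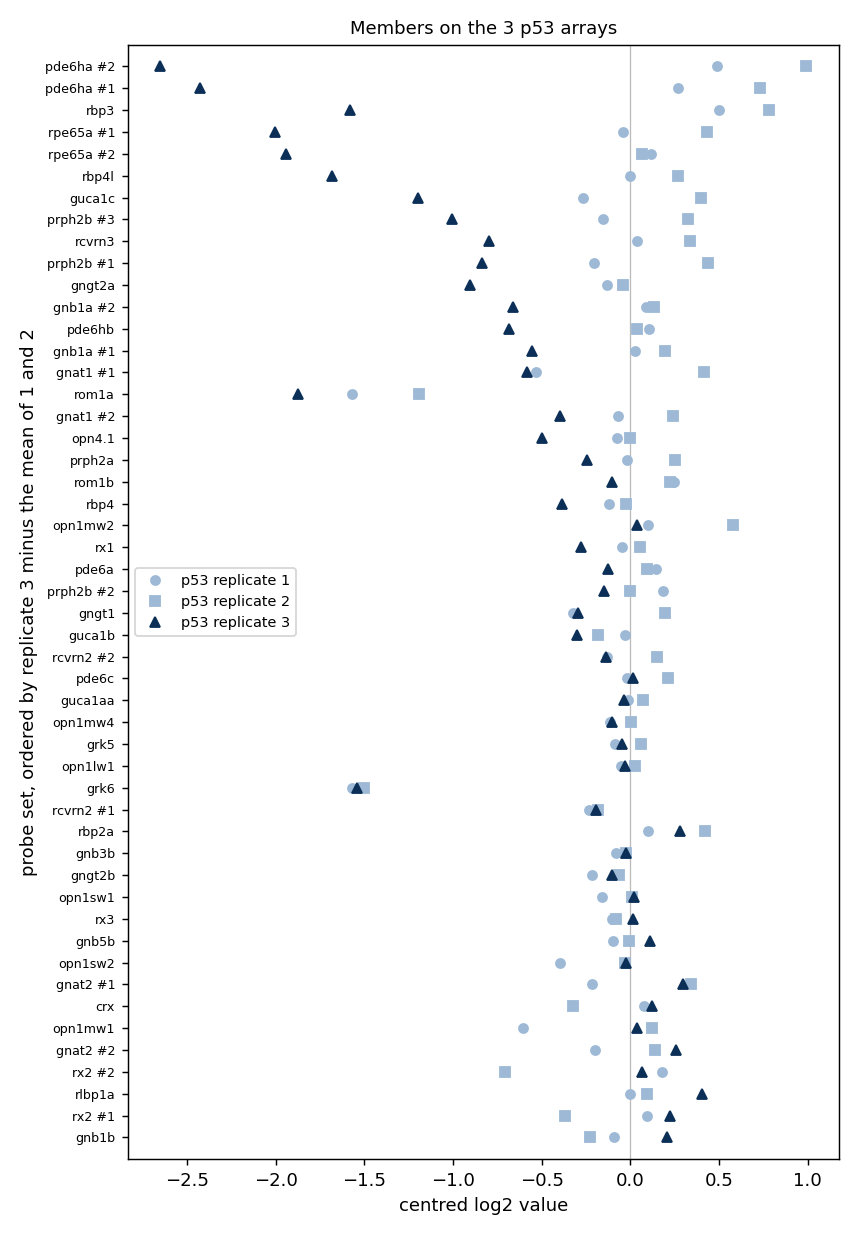
Centred log2 values (horizontal axis) of all 50 members on the 3 p53 arrays, ordered from the largest gap of replicate 3 below the mean of replicates 1 and 2 (top). Replicate 3 (dark triangles) lies far to the left for pde6ha, rbp3, rpe65a and rbp4l, and close to the other replicates for the opsins opn1sw1 and opn1lw1.

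The calcium-dependent regulators gave no call in any pairwise comparison with limma, in 3 guanylate cyclase activator and 3 recoverin probe sets, while 3 and 1 of them had an unadjusted p under 0.05 in at least 1. In single comparisons 13% to 22.7% of all probe sets had such a p, and their share over all pairwise comparisons was not counted. Guca1c had centred values of 0.15, -0.43 and 0.07 in wild type and 0.03, 1.03 and 0.70 in BRAF embryos, with a difference of 0.66 ± 0.36 (limma adjusted p = 0.323). The groups overlapped through BRAF replicate 1. Guca1aa differed by 0.24 ± 0.10 in BRAF embryos without overlap of the arrays (limma adjusted p = 0.187), and guca1b by -0.29 ± 0.10 in BRAF;p53 embryos, again without overlap (limma adjusted p = 0.214). Recoverin inhibits the opsin kinase in the dark. Its genes rcvrn2, with 2 probe sets, and rcvrn3 differed from wild type in BRAF embryos by 0.17, 0.12 and 0.14 (limma adjusted p = 0.221, 0.62 and 0.807), and the first probe set of rcvrn2 did so without overlap.

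In the retinoid cycle rlbp1a passed in 1 comparison. It encodes a retinaldehyde-binding protein that carries chromophore in the pigment epithelium. Its centred values were 0.37, 0.64 and 0.21 in wild type, 0.00, -0.19 and -0.27 in BRAF, 0.00, 0.10 and 0.40 in p53 and -0.01, -0.07 and -0.01 in BRAF;p53 embryos. Wild-type arrays lay above all BRAF and all BRAF;p53 arrays and overlapped the p53 arrays. Rlbp1a fell by 0.56 ± 0.13 in BRAF embryos, or 1.48-fold (limma adjusted p = 0.0304), and its difference of -0.44 in BRAF;p53 embryos did not pass (limma adjusted p = 0.149). The BRAF call was lost without BRAF replicate 2 or 3, wild-type replicate 1 or 2, or BRAF;p53 replicate 1, with limma adjusted p of 0.0509 to 0.117 and differences of -0.58 to -0.44.

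The other retinoid cycle members were not called. Rbp4l, known as purpurin and made by photoreceptors, had centred values of 0.26, -0.32 and -0.001 in wild type and 0.28, 0.80 and 0.71 in BRAF embryos. These groups did not overlap. The difference was 0.62 ± 0.40 and missed the threshold (limma adjusted p = 0.408), and so did the one between BRAF;p53 and BRAF embryos, -0.89 (adjusted p = 0.225 with limma). The latter passed without p53 replicate 3 (-0.89, limma adjusted p = 0.0177). Rbp3, which carries retinoids between photoreceptors and pigment epithelium, had values of 0.06, -0.79 and 0.09 in wild type, -0.06, 0.38 and 0.21 in BRAF, 0.50, 0.78 and -1.58 in p53 and -0.85, -0.64 and -0.21 in BRAF;p53 embryos. Its difference between BRAF;p53 and p53 embryos moved from -0.46 (limma adjusted p = 0.755) to -1.21 (limma adjusted p = 0.0362) without p53 replicate 3. The p53 mean then rests on samples 1a and 1b alone, which are not stated to be separate clutches. Rpe65a, the isomerase of the cycle, differed between BRAF and wild type by -0.004 and 0.23 in its 2 probe sets (limma adjusted p = 0.998 and 0.794).

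Of the transcription factors, rx1, a retinal homeobox gene of photoreceptors and their precursors, passed in 1 comparison. Its centred values were -0.27, -0.10 and -0.17 in wild type, 0.49, 0.24 and 0.14 in BRAF, -0.05, 0.05 and -0.28 in p53 and 0.05, 0.07 and -0.06 in BRAF;p53 embryos. The 3 BRAF arrays were the highest of the 12. Rx1 rose by 0.47 ± 0.11 in BRAF embryos, or 1.39-fold (limma adjusted p = 0.0333). This was lost in 7 of 12 fits without 1 array (each wild-type array, BRAF replicate 1 or 2, BRAF;p53 replicate 1 or 2), with limma adjusted p of 0.0528 to 0.116 and differences of 0.37 to 0.51. Crx, which activates opsin and other photoreceptor genes, had values of 0.03, 0.35 and -0.03 in wild type and 0.37, -0.33 and -0.72 in BRAF embryos, which overlapped (-0.34 ± 0.24, limma adjusted p = 0.438). Rx2, with 2 probe sets, and the eye field gene rx3 differed by 0.01, -0.19 and 0.16 (limma adjusted p = 0.98, 0.673 and 0.498).

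The genes caught by their prefix gave no call with limma, while 2 of the 4 probe sets had an unadjusted p under 0.05 in at least 1 pairwise comparison. In single comparisons 13% to 22.7% of all probe sets had such a p, and their share over all pairwise comparisons was not counted. Rbp2a, a cellular retinol-binding protein of the intestine, was lower by 0.42 ± 0.13 in BRAF;p53 than in p53 embryos without overlap (limma adjusted p = 0.139). Rbp4, the plasma retinol carrier made by the liver, differed by at most 0.23 in the 6 pairwise comparisons (lowest limma adjusted p = 0.229), grk5 by at most 0.32 (lowest limma adjusted p = 0.205) and grk6 by at most 0.12 (lowest limma adjusted p = 0.461).

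Further photoreceptor and visual cycle genes, transcription factors among them, were taken from a list of 77 genes, of which 27 were measured by 36 probe sets. In BRAF against wild type 1 of the 36 rose and none fell, beside calls for 6.41% of all probe sets. In BRAF;p53 against BRAF 1 rose and 3 fell, beside 4.5%. In BRAF against p53 embryos 3 rose and none fell, beside 7.44%. With limma none passed in p53 or BRAF;p53 embryos against wild type or in BRAF;p53 against p53 embryos, beside 1.83%, 1.95% and 2.94%. An unadjusted F-test p under 0.05 was found for 10 of the 36, beside 25.7% of all probe sets. The carotenoid-cleaving oxygenase bco2l had centred values of -0.82, -0.84 and -0.77 in wild type and 0.93, 1.30 and 0.60 in BRAF embryos, and all p53 and BRAF;p53 arrays lay between -0.88 and -0.71. It rose by 1.76 ± 0.14 in BRAF embryos (limma adjusted p = 4.27e-05) and fell by 1.77 in BRAF;p53 against BRAF embryos (limma adjusted p = 8.9e-05). The BRAF difference was smaller by 1.81 in p53 mutants (limma adjusted p = 0.000779). Bco1, which splits beta-carotene to retinal, was lower by 1.46 in BRAF;p53 than in BRAF embryos, and ckmt2a, a mitochondrial creatine kinase, by 0.55 (limma adjusted p = 0.0113 and 0.0454). Elovl4b, which elongates very long fatty acids, was higher by 0.69 in that comparison (limma adjusted p = 0.0366). In whole-embryo RNA the calls of this list, bco1 among them, cannot be assigned to the eye.

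Lists for other cells of the eye and for tissues that express a member were counted over all pairwise comparisons together. In single comparisons 1.83% to 7.44% of all probe sets passed, and their share over all pairwise comparisons was not counted. With limma 3 of 23 probe sets passed for Müller glia and the ciliary margin, 2 of 9 for liver and yolk, and 1 each of 3 for bipolar, 13 for horizontal and amacrine, 4 for pigment epithelium and melanin and 7 for lens genes. None passed for 12 ganglion cell and 6 pineal probe sets, of which 2 and 0 had an unadjusted F-test p under 0.05, beside 25.7% of all probe sets. In BRAF embryos glula, a glutamine synthetase gene of the first of these lists, was lower by 0.53 (limma adjusted p = 0.0445). The other call of that list in BRAF against wild type was the member rlbp1a, described above for the pigment epithelium, which is not a separate result. The lens crystallin gene cryaa was lower by 1.61 in BRAF embryos (limma adjusted p = 2.82e-05), and the liver genes fgb and ces3 were higher by 0.49 and 1.21 (limma adjusted p = 0.0177 and 0.00281).

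In BRAF;p53 against BRAF embryos the bipolar cell gene vsx1 was higher by 0.69 and pax6a, of amacrine and other cells, by 0.60 (limma adjusted p = 0.0282 for each). The lipid carrier gene apoeb was lower by 0.52 there (limma adjusted p = 0.0259), while cryaa was higher by 1.40 (limma adjusted p = 0.000172). Tyr, the melanin-making tyrosinase of pigment epithelium and pigment cells, was higher by 0.90 than in p53 and by 0.82 than in BRAF embryos (limma adjusted p = 0.0267 and 0.0311). The remaining leading genes of these lists, isl1a and elavl4 of the ganglion cell list, aanat1 and aanat2 of the pineal, cabp5b, pax6b, cryaba, rgrb, apoa4b.2 and slc15a1b, did not pass the F test (limma adjusted p of 0.0865 to 0.499). Of the genes called above in single comparisons, glula, vsx1, pax6a, apoeb and elovl4b did not pass it either (limma adjusted p of 0.0557 to 0.0932). Whether these genes share a source with the member differences was not tested.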

How the data were processed

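Total RNA from whole embryos was hybridised to 12 arrays. GCRMA produced the deposited log2 values, as the submitters' processing notes name it, and its version was not given in the sources used here. From the values, 13937 of 15617 probe sets had a linear median of 1 over the 12 arrays (tolerance 1e-04) and 1680, among them 5 members (grk5, grk6, guca1b, opn1mw4 and the first probe set of rcvrn2), a lower one. Brightness and the divisor of those 1680 are unknown, so a signal over background could not be read and no filter on low values was possible. Array medians ran from -0.04 to 0.08.

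Symbols came from the platform annotation: 10795 probe sets had 1 symbol, 135 several and 4572 none, and 2 with several symbols, of which 1 met the rule, were not used. All 50 member symbols were found in the RefSeq gene table. Sequences and coordinates were not used here. After leaving out 115 controls, 15502 probe sets were fitted by lmFit and eBayes of limma 3.58.1 under R 4.3.3, 1 mean per genotype and 8 residual degrees of freedom, and p-values were adjusted by Benjamini-Hochberg. Tests were two-sided. The fit was checked on simulated data.

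Replicate numbers did not pair the samples: deviations of samples with the same number correlated at -0.32 to 0.36 in 18 pairs of genotypes and replicates, 7 of them above 0.1. Alternatives were a replicate block, quantile normalization, array medians set to 0, trended and robust eBayes, p53 samples 1a and 1b averaged, only the genotypes compared, probe sets of a gene averaged, a minimum difference of 0.5 or 1, the 11626 most variable probe sets (44 members), and arrays left out. Named with values were members past the threshold, the 3 of each role with the smallest F-test p, the main phototransduction and retinoid genes, and, of the other lists, those past the threshold and the 2 with the smallest F-test p. Members, roles and lists were chosen with earlier results of these data known. Figures were drawn with matplotlib 3.10.9 under Python 3.11.15, from tables handled in numpy 2.4.6 and pandas 2.3.3.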

Additional observations from a re-analysis of the deposited data

Results flagged for a closer look

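The BRAF difference of gnb1b was not the same in the 2 p53 genotypes, by 0.821 on the log2 scale (limma interaction, adjusted p = 0.0429): -0.66 with functional p53 and 0.16 in p53 mutants, with 3 arrays per genotype. All 3 BRAF arrays lay below all 9 others. The call held in 2 of 12 fits without 1 array.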

How the results depend on the processing

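The 10 pairwise calls of members and the interaction call of gnb1b kept their sign under every alternative run. The 3 F-test calls have no sign. Because the arrays of the 10 pairwise calls did not overlap, leaving out 1 array could not turn their sign. Over the 14 single calls and all alternatives, 230 results passed the threshold again and 82 did not. Leaving out 1 array gave 1 to 5 members called in BRAF against wild type, 0 to 2 in p53 and 0 to 2 in BRAF;p53 against wild type, 1 to 3 in BRAF;p53 against p53, 0 to 6 in BRAF;p53 against BRAF, 1 to 5 in BRAF against p53, 0 to 4 in the interaction and 1 to 7 in the F test, against 4, 1, 1, 1, 2, 1, 1 and 3 with all arrays. The shares of all probe sets called in those fits were, in the same order, 3.84% to 7.66%, 1.04% to 3.01% and 1.05% to 3.29%. For the next 3 they were 1.15% to 4.44%, 1.95% to 6.33% and 5.3% to 7.52%. For the interaction and the F test they were 1.83% to 5.08% and 6.34% to 11.3%. With BRAF replicate 1 and p53 replicate 3 both left out the counts were 8 in BRAF and 4 in BRAF;p53 against wild type, 5 in BRAF;p53 against p53, 8 in BRAF;p53 against BRAF, 9 in the interaction and 11 in the F test, beside 11.4%, 5.91%, 7.92%, 7.5%, 9.48% and 17% of all probe sets. Quantile normalization gave 5 in BRAF;p53 against wild type and 5 in the F test, beside 4.99% and 11.4% of all probe sets. Fitting only the genotypes compared gave 2 in BRAF, 0 in p53 and 4 in BRAF;p53 against wild type, and 5 in BRAF;p53 against BRAF. The shares of all probe sets there were 3.86%, 0.677%, 5.39% and 3.84%. A replicate block, whose numbers the data do not pair, gave 0 in BRAF;p53 against wild type, 1 in BRAF;p53 against BRAF and 0 in the interaction, beside 2.12%, 4.53% and 3.1%. Averaging p53 samples 1a and 1b gave 0 in p53 and 0 in BRAF;p53 against wild type and 0 in the interaction, beside 1.01%, 1.81% and 2.01%. Centred array medians gave 1 in BRAF;p53 against BRAF and 0 in the interaction (beside 4.5% and 3.07%), and the trend and robust settings 0 in the interaction (beside 2.43%). A minimum difference of 1 left 1 in BRAF and 0 in BRAF;p53 against wild type, 0 in BRAF;p53 against BRAF and 0 in the interaction, by construction. The other causes were not tested. Single calls lost outside those fits were rlbp1a under trend and robust settings, the block and only the genotypes compared (adjusted p = 0.0541 to 0.0904 with limma), rx1 with only the genotypes compared (0.0978) and, by construction, at a minimum difference of 0.5, rom1a in p53 embryos with that and with 1a and 1b averaged (0.094 and 0.0512), rom1b with the block and that average (0.0649 and 0.0501), prph2a with centred medians and the block (0.0668 and 0.0683), and the gnb1b interaction with each of the 4 settings other than the minimum difference that gave 0 calls (0.0517 to 0.094). Further members passed in single settings: the third probe set of prph2b and rbp4l in BRAF;p53 against BRAF with only the genotypes compared, rlbp1a in BRAF;p53 against wild type under quantile normalization, gnb1b, guca1c and the first probe set of gnat1 among others in BRAF against p53 without p53 replicate 2, and rbp2a in BRAF;p53 against p53 without BRAF replicate 1. Where an array is left out, its genotype's spread is taken from all genotypes. Without p53 replicate 3 the p53 mean comes from samples 1a and 1b alone. Centred values hide signal over background, so dim probe sets limit these results to an unknown extent.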
